A study of Mus musculus with 35 samples.

Results

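The platelet surface is built from a small set of receptors and adhesion proteins, and 9 of the genes that encode them are described here: Itga2b, Itgb3, Gp9, Gp1ba, Gp1bb, Gp5, Gp6, Vwf and Selp. They were chosen by name, as 9 of 21887 protein-coding genes on mouse chromosomes 1 to 19, X and Y. Itga2b and Itgb3 encode the integrin subunits alpha IIb (CD41) and beta 3 (CD61), which pair into the fibrinogen receptor of platelets. Gp1ba, Gp1bb, Gp9 and Gp5 encode the subunits of the glycoprotein Ib-IX-V complex, which catches von Willebrand factor on an injured vessel wall. Gp6 encodes the platelet collagen receptor, Vwf encodes von Willebrand factor itself, and Selp encodes P-selectin, an adhesion protein stored in platelet granules and displayed on activation. These genes are textbook products of megakaryocytes, the platelet-forming cells of bone marrow. Itga2b and Vwf are also used in some stem and early progenitor cells, and Vwf and Selp in endothelium.

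The measurements were chromatin immunoprecipitation sequencing (ChIP-seq) peak lists from bone marrow of C57BL/6 mice. Acetylated H3K27 (H3K27ac) marks active promoters and enhancers, H3K4me1 marks enhancers whether or not they are active, and H3K4me3 marks promoters. Each mark was profiled in lineage-negative (Lin-) haematopoietic stem and progenitor cells (HSPC) of 4 genotypes, labelled Npm1c, Flt3-ITD, DM and WT, and in WT neutrophils, with 2 libraries a group, which the design text calls biological replicates, and 30 libraries in all. Npm1c stands for the cytoplasmic nucleophosmin mutation and Flt3-ITD for the internal tandem duplication in the Flt3 receptor, both found in acute myeloid leukaemia. DM was read as the double mutant that carries both, since the labels do not spell it out. The labels name no age or sex of the mice, no allele design and no Cre driver, and nothing says whether animals were pooled. All HSPC came through a lineage depletion kit and the neutrophils through a neutrophil isolation kit.

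Peak lists held 21709 to 30150 peaks for H3K27ac, 102927 to 131205 for H3K4me1 and 30310 to 39320 for H3K4me3. They carry positions only, so read depth is unknown and each value below is the length under peaks, in kb or bp, within a gene's window: the gene span plus 10 kb on each side for H3K27ac and H3K4me1, and plus 5 kb for H3K4me3. H3K4me1 and H3K4me3 peaks have a fixed width of about 1000 bp, so their values step by about 1 kb. A bulk peak list cannot tell fewer cells of a type from less of the mark in each cell. As a check of the labelled cell types, 12 neutrophil marker genes together had 36.2 and 37.8 kb of H3K27ac in neutrophils, against 2.83 to 7.19 kb in the HSPC libraries, where S100a8, S100a9, Ltf, Camp, Mmp9 and Retnlg had none. Ly6g had none in any library. Of 8 markers of HSPC, 5 (Kit, Cd34, Meis1, Gata2 and Mecom) had none in either neutrophil library, and 3 had peaks in both. These 8 together had 10.4 and 11.1 kb in neutrophils, close to WT HSPC, so their sum does not separate neutrophils from WT HSPC. The 8 HSPC markers together had 37.5 and 48.4 kb in Npm1c, 22.5 and 27.2 kb in Flt3-ITD and 25.6 and 14.4 kb in DM HSPC, against 11.9 and 12.2 kb in WT HSPC. Gata2 and Mecom had none in DM HSPC, and Mecom had none in WT HSPC.

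Promoter sequence is shown for 4 genes whose start carried H3K27ac in some libraries and not in others, chosen after their values were seen. The letters run over the 250 bases before the gene start, 5′ to 3′ along the gene's strand, from RefSeq GRCm38.p6, the mm10 assembly to which the reads were aligned per the submitters' processing notes. Itga2b lies at chr11:102469884-102470133 on the minus strand, Gp9 at chr6:87777820-87778069 on the plus strand, Gp1ba at chr11:70638872-70639121 on the plus strand and Gp5 at chr16:30310782-30311031 on the minus strand. Capitals mark matches on either strand. For GATA factors the letters searched were AGATAA, its form with T in front (TGATAA), its form with G at the end (AGATAG) and the form with both changes (TGATAG). For ETS factors they were AGGAAG and, with C in front, CGGAAG. RUNX factors were searched as TGTGGT, and AP-1 with NF-E2 as TGAGTCA.
Itga2b: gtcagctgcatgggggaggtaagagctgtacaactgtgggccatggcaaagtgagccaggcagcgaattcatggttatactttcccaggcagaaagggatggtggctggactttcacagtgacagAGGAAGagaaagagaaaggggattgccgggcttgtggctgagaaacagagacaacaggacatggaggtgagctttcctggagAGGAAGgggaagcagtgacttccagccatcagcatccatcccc
Gp9: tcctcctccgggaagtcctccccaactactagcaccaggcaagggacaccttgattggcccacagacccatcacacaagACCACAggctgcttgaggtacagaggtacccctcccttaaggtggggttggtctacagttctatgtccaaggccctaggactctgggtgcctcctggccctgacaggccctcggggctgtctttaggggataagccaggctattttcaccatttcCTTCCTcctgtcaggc
Gp1ba: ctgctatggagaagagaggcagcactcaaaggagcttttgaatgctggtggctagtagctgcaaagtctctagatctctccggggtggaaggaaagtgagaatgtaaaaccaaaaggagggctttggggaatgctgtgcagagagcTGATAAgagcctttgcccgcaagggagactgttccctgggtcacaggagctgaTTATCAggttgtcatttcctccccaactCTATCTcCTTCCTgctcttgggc
Gp5: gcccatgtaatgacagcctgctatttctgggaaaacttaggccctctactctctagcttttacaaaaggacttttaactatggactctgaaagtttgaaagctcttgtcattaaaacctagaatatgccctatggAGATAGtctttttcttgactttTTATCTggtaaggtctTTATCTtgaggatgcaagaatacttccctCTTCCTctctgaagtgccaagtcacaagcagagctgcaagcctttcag

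The RefSeq table held promoters for 7 of the 9 genes. Among these 7, Gp1ba, Gp1bb, Gp5 and Gp6 held a GATA match, so 4 of 7, and 24.3% of all 17492 promoters of the same length held one. Gp1ba and Gp5 each had 3 GATA matches. An ETS match was present in 6 of 7 (Itga2b, Gp9, Gp1ba, Gp1bb, Gp5 and Selp), and in 40.7% of all promoters. The RUNX letters occurred in Gp9 alone among the 7, and in 12.5% of all promoters. The AP-1 and NF-E2 letters occurred in 0 of the 7, and in 4.0% of all promoters. Other letters that these factors can bind were not searched.

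H3K27ac is described first, gene by gene. Summed over the 9 windows there were 19.8 and 16.4 kb in Npm1c, 7.61 and 10.8 kb in Flt3-ITD, 7.77 and 5.37 kb in DM HSPC and 9.49 and 10.3 kb in neutrophils, against 10.2 and 11.6 kb in WT HSPC. Both Npm1c libraries stood above every other library, and both DM libraries lay below both WT HSPC libraries. The whole H3K27ac lists of Npm1c HSPC were also the longest, 23.4 and 23.9 Mb, against 15.2 and 15.3 Mb in WT HSPC. Those of DM HSPC covered 20.3 and 13.5 Mb. The sums were not scaled for this, and its part in them was not tested. A peak in the window was present in all 10 libraries for 3 genes (Gp1ba, Vwf and Selp), and in some libraries for 5. Gp6 had no H3K27ac peak in any library and so could not be tested for this mark, which left 8 of 9 genes. The median of their differences from WT HSPC, as log2 of the covered bp plus 500 bp, was 0.43 in Npm1c, -0.07 in Flt3-ITD, -0.46 in DM HSPC and -0.73 in neutrophils. Over all 13637 genes tested the median difference was 0.36, 0.12, 0.02 and -0.12 in the same order of groups.

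**Figure D1:**
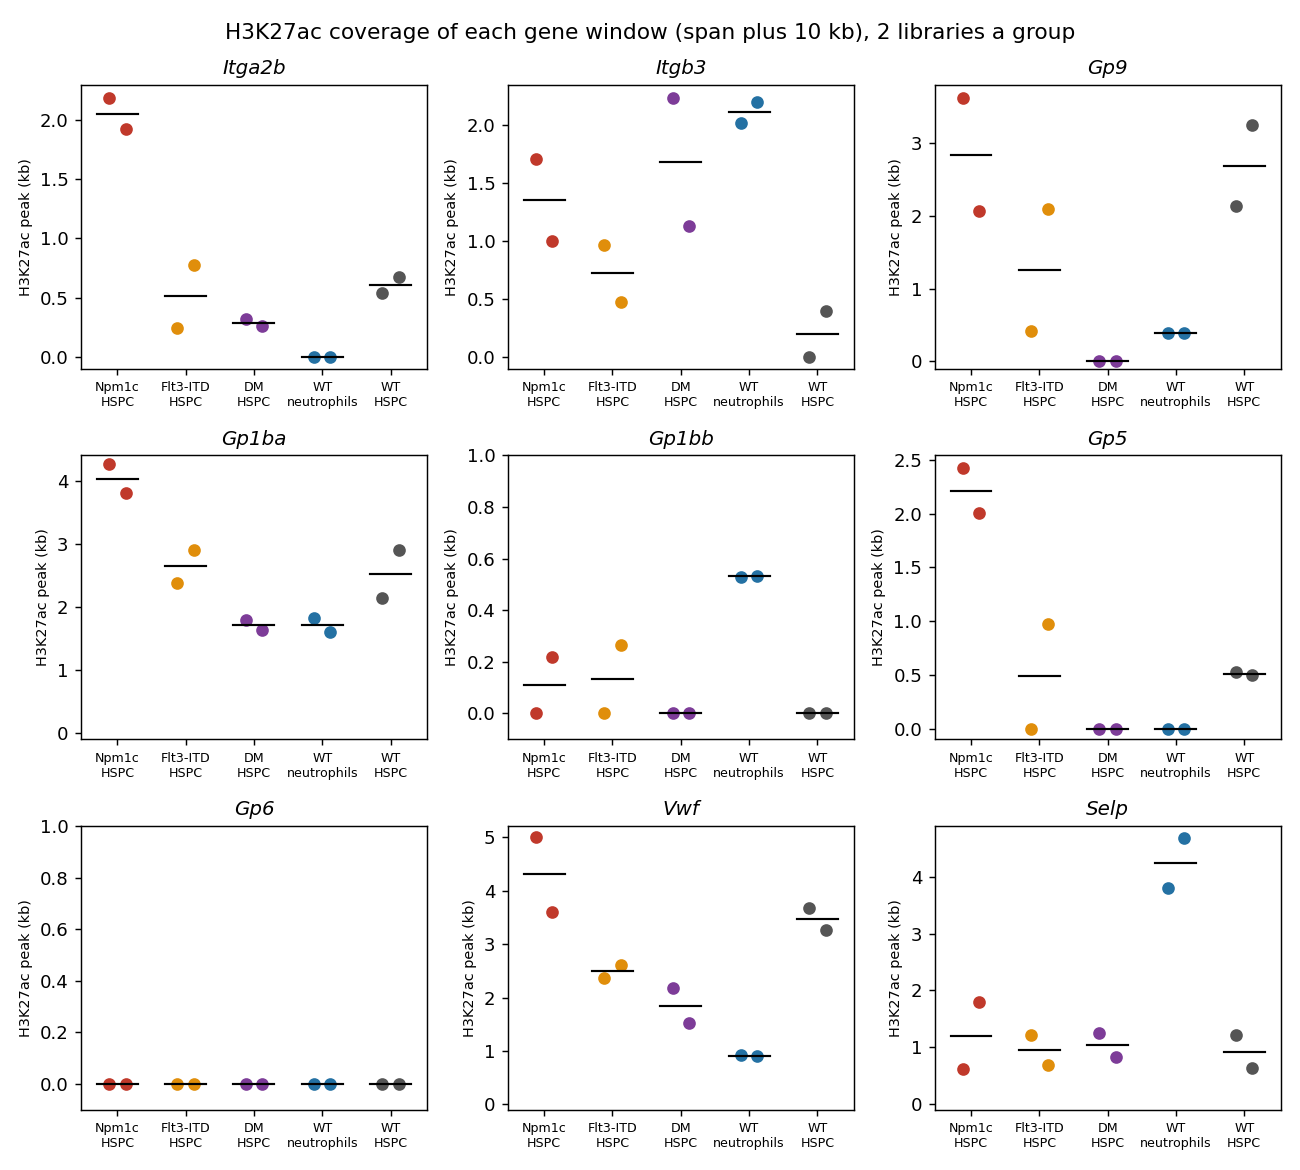
Length under H3K27ac peaks, in kb, in the window of each of the 9 genes (span plus 10 kb), with 1 point for each of the 2 libraries of a group and a bar at their mean. Both Npm1c libraries stand above all others at Itga2b, Gp1ba and Gp5, and both neutrophil libraries at Gp1bb and Selp. At Vwf the Npm1c mean is highest, but Npm1c and WT HSPC overlap. Both DM libraries are at 0 for Gp9, Gp1bb, Gp5 and Gp6.

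Itga2b, the alpha subunit of the fibrinogen receptor, lies at chr11:102453297-102469883 on the minus strand. Its window held 2.19 and 1.92 kb of H3K27ac in Npm1c, 0.246 and 0.774 kb in Flt3-ITD, 0.317 and 0.264 kb in DM HSPC and 0 kb in both neutrophil libraries, against 0.542 and 0.674 kb in WT HSPC. Npm1c HSPC did not overlap any other group, and DM HSPC overlapped Flt3-ITD HSPC. The peaks shared by more than 2 libraries lay at the start (chr11:102469128-102470202, 0.32 kb before to 0.76 kb after it) and in a second place inside the gene, 1.81 to 2.57 kb downstream. Other peaks were 535 bp before the start in Npm1c replicate 1 alone, 225 bp further inside the gene in Npm1c replicate 2 alone, and 340 bp in Npm1c replicate 2 and 200 bp in Flt3-ITD replicate 2 inside the neighbouring gene Fam171a2. At the start region the 2 Npm1c libraries had 1075 and 600 bp, against 258 and 333 bp in WT HSPC, and the Flt3-ITD, DM and neutrophil libraries had none. The downstream region was called in all 8 HSPC libraries and in neither neutrophil library. The promoter printed above lies inside the start region.

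The beta subunit gene Itgb3 (chr11:104608000-104670476) differed from its partner. H3K27ac covered 1.70 and 1 kb in Npm1c, 0.968 and 0.472 kb in Flt3-ITD, 2.23 and 1.13 kb in DM HSPC and 2.02 and 2.19 kb in neutrophils, against 0 and 0.399 kb in WT HSPC. WT HSPC were thus lowest and overlapped no other group, while the other 4 groups were higher in the order neutrophils, DM, Npm1c and Flt3-ITD, with DM overlapping both neutrophils and Npm1c. At the low end of the span, 0.03 to 1.53 kb inside the gene, the region had 1421 and 877 bp in DM HSPC, against 0 and 399 bp in WT HSPC. Deep in the gene, neutrophils had 483 and 610 bp at 39.0 to 39.65 kb, where Npm1c replicate 2, Flt3-ITD replicate 1 and DM replicate 1 also had 312, 234 and 338 bp. They had 809 and 925 bp at 59.0 to 60.02 kb. This last region, at chr11:104666996-104668020, was called in no HSPC library.

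Gp9 (chr6:87776131-87779786), the small subunit that the Ib-IX-V complex needs to reach the surface, had the largest fitted H3K27ac difference between DM and WT HSPC among the 8 genes tested. Its window held 3.61 and 2.07 kb in Npm1c, 0.419 and 2.096 kb in Flt3-ITD, 0 kb in both DM libraries and 0.388 kb in both neutrophil libraries, against 2.13 and 3.24 kb in WT HSPC. Npm1c and WT HSPC overlapped and the 2 Flt3-ITD libraries lay far apart. Peaks at the gene formed 2 main regions, 1 upstream of the start at 1.95 to 0.73 kb before it and 1 across the start, and both were called in the 6 Npm1c, Flt3-ITD and WT HSPC libraries and in none of the 4 DM and neutrophil libraries. The remaining coverage in neutrophils lay inside the neighbouring gene Rab43, in a region that the window's end cuts off. That region was also called in Npm1c and WT HSPC and in Flt3-ITD replicate 2.

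Gp1ba (chr11:70639102-70643986), the subunit that binds von Willebrand factor, had 4.27 and 3.81 kb in Npm1c, 2.39 and 2.91 kb in Flt3-ITD, 1.80 and 1.63 kb in DM HSPC and 1.82 and 1.60 kb in neutrophils, against 2.15 and 2.90 kb in WT HSPC. Npm1c HSPC were highest without overlap, DM HSPC and neutrophils were lowest and overlapped each other, and Flt3-ITD overlapped WT HSPC. Much of this window belongs to other genes, with 55.9% of it outside them. Peaks over Slc25a11, Rnf167, Pfn1 and Eno3 were called in all 10 libraries. The widest of these regions, over Slc25a11 and Rnf167, had 1741 and 1233 bp in Npm1c and 767 and 779 bp in DM HSPC. It had 978 and 993 bp in WT HSPC, so the differences of this window were not those of Gp1ba alone. The 2 regions at the Gp1ba start itself summed to 974 and 917 bp in Npm1c and were absent from all DM and neutrophil libraries, and in WT HSPC only the second library had them.

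Gp5 (chr16:30307685-30310781), whose product thrombin cleaves, had 2.42 and 2 kb in Npm1c, 0 and 0.974 kb in Flt3-ITD and 0 kb in the DM and neutrophil libraries, against 0.524 and 0.497 kb in WT HSPC. Apart from 342 bp before the start in Npm1c replicate 1, the coverage lay over the gene itself. Within 1 kb of the start, only the Npm1c libraries had H3K27ac, 1301 and 674 bp. Gp1bb (chr16:18620319-18622403), the subunit bound to Gp1ba, had 0 and 0.217 kb in Npm1c, 0 and 0.265 kb in Flt3-ITD, 0 kb in both DM libraries and 0.530 and 0.533 kb in neutrophils, against 0 kb in both WT HSPC libraries. Those Gp1bb window peaks all lay inside its neighbour Septin5, 4.01 to 7.46 kb before the Gp1bb start, so none of them covered Gp1bb.

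Vwf (chr6:125552948-125686679), the ligand of the complex, had 5.01 and 3.60 kb in Npm1c, 2.37 and 2.61 kb in Flt3-ITD, 2.18 and 1.52 kb in DM HSPC and 0.925 and 0.900 kb in neutrophils, against 3.67 and 3.26 kb in WT HSPC. Npm1c overlapped WT HSPC, and below them the Flt3-ITD, DM and neutrophil groups followed in that order without overlap. An intragenic region 19.33 to 21.56 kb from the low end of the span was called in all 10 libraries, with 925 and 900 bp in neutrophils and 1195 to 2204 bp in HSPC. A second region at 11.54 to 13.36 kb (chr6:125564491-125566312) had 1822 and 1409 bp in Npm1c and 589 and 821 bp in Flt3-ITD, against 1463 and 1154 bp in WT HSPC, and had none in the DM and neutrophil libraries.

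Selp (chr1:164115264-164150026) had more H3K27ac in both neutrophil libraries than in any HSPC library: 0.614 and 1.79 kb in Npm1c, 1.22 and 0.687 kb in Flt3-ITD, 1.25 and 0.830 kb in DM HSPC and 3.81 and 4.69 kb in neutrophils, against 1.22 and 0.628 kb in WT HSPC. The HSPC groups all overlapped each other. A region 20.38 to 22 kb inside the gene was called in all 10 libraries and covered 1572 and 1612 bp in neutrophils, against 351 to 936 bp in HSPC. Further peaks at 36.41 to 38.59 kb, widest in neutrophils, lay in the neighbouring gene F5, which encodes coagulation factor V. No library had H3K27ac within 1 kb of the Selp start.

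**Figure D2:**
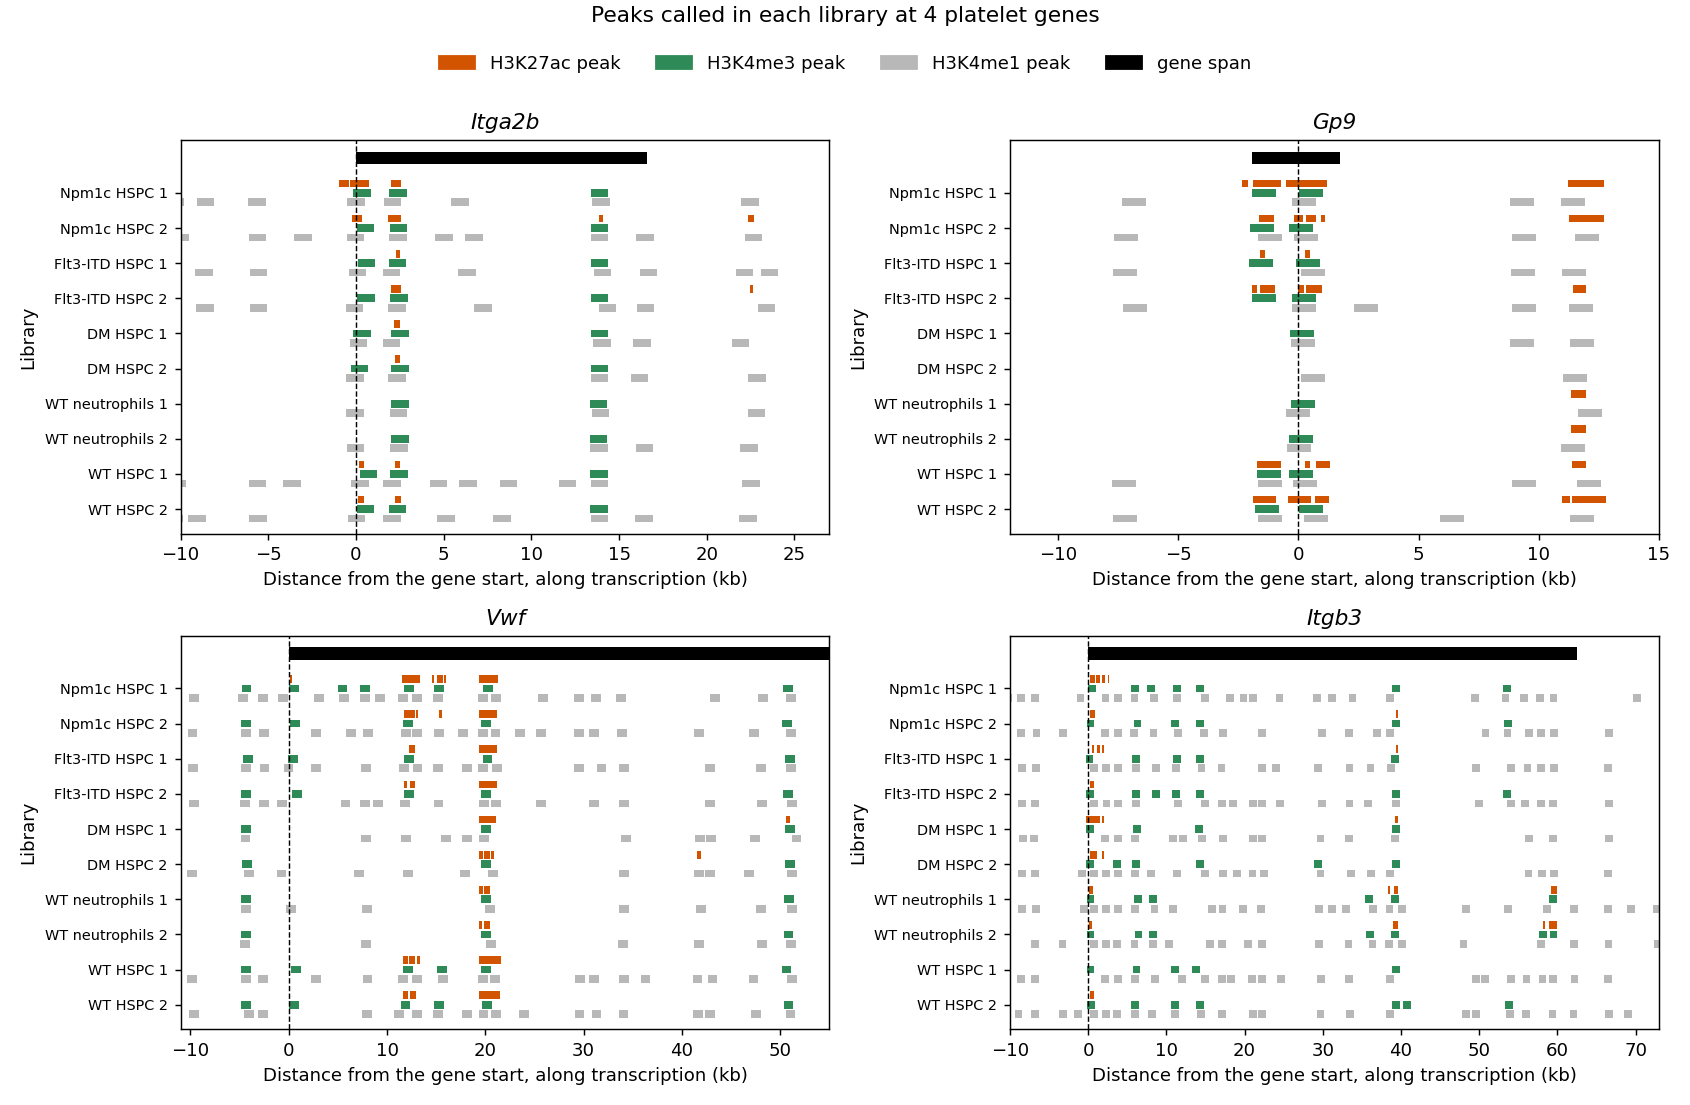
Called peaks of the 3 marks along Itga2b, Gp9, Vwf and Itgb3, with 1 row for each library, by distance in kb from the gene start along transcription (for Vwf and Itgb3 from the low end of the span), with the gene span as a black bar. H3K27ac at the Itga2b start is seen in Npm1c and WT HSPC, H3K27ac over Gp9 and at 11.54 to 13.36 kb of Vwf is missing from DM and neutrophil rows, and the Itgb3 regions near 39.0 and 59.0 kb carry neutrophil peaks.

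Centring each library on its own median moved the split of calls over all genes in most comparisons. For H3K27ac it gave 120 higher and 74 lower for Flt3-ITD against WT HSPC (11 and 3 without centring), 1552 and 1523 for DM against WT HSPC (947 and 823), 2788 and 2849 for neutrophils against WT HSPC (1805 and 3162) and 360 and 449 for DM against Flt3-ITD HSPC (86 and 253). For H3K4me1 it gave 0 and 0 for Npm1c (20 and 38), 62 and 71 for Flt3-ITD (92 and 204) and 1389 and 2977 for neutrophils (812 and 3235), each against WT HSPC. It gave 1150 and 2005 for DM against Npm1c HSPC (538 and 2097), 229 and 654 for DM against Flt3-ITD HSPC (167 and 1454) and 33 and 203 for the interaction (151 and 431). For H3K4me3 it gave 2 and 18 for Npm1c (156 and 65), 22 and 42 for Flt3-ITD (367 and 73), 347 and 440 for DM (721 and 597) and 1517 and 978 for neutrophils (1085 and 1594), each against WT HSPC. It gave 473 and 178 for DM against Npm1c HSPC (613 and 700), 74 and 83 for DM against Flt3-ITD HSPC (328 and 585) and 34 and 13 for the interaction (316 and 610).

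Npm1c HSPC were compared with WT HSPC to ask what the Npm1c mutation alone does. H3K27ac rose at 3 of 8 genes tested, Itga2b, Itgb3 and Gp1ba, and fell at none; among all genes tested, 17.7% were called higher and 0.022% lower, with adjusted p below 0.05 in limma after Benjamini-Hochberg adjustment over all 13637 genes. Itga2b rose by 1.21 ± 0.24 (log2 difference ± SE, limma adjusted p = 0.0233), Itgb3 by 1.44 ± 0.37 (limma adjusted p = 0.0414) and Gp1ba by 0.60 ± 0.15 (limma adjusted p = 0.0375). Part of the rise in the Gp1ba window lay over Slc25a11 and Rnf167, with 1741 and 1233 bp in Npm1c, against 978 and 993 bp in WT HSPC. Gp5 differed by 1.42 ± 0.42, with a limma adjusted p of 0.0553. Vwf, Gp9 and Selp did not pass the test, with differences of 0.26 ± 0.18, 0.05 ± 0.46 and 0.20 ± 0.38. The median gene was also higher in this comparison, by 0.36. With each library centred on its own median, the 3 differences were 0.81, 1.04 and 0.20 and no member was called, and the all-gene calls were 104 higher and 5 lower, against 2410 and 3 without centring. All 3 calls were also lost when any 1 of the Npm1c, WT HSPC or neutrophil libraries was left out. For this contrast H3K4me1 and H3K4me3 gave no call among the 9 genes (limma), with 1 gene (Gp1ba) at an unadjusted p below 0.05 for H3K4me1 and 0 for H3K4me3; all genes were called at 0.334% and 1.37% in either direction.

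Flt3-ITD HSPC gave no call against WT HSPC at any of these genes for any mark (limma), where 0.103% of genes were called for H3K27ac, 1.7% for H3K4me1 and 2.73% for H3K4me3. At an unadjusted p below 0.05 there were 0 genes for H3K27ac, 3 for H3K4me1 (Gp1ba, Gp5 and Gp6) and 0 for H3K4me3. The nearest H3K27ac differences were at Gp9, -1.02 ± 0.46, Itgb3, 0.83 ± 0.37, and Vwf, -0.41 ± 0.18. The Itga2b start peak, present in both WT HSPC libraries, was absent from both Flt3-ITD libraries; such a loss was seen at 0.241% of the 7896 genes with an H3K27ac start peak in both WT HSPC libraries. With 2 libraries a group the comparison leaves wide errors, and a p above the threshold does not show equal coverage.

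DM HSPC, read as carrying both mutations, were next compared with WT HSPC. For H3K27ac, Gp9 and Vwf fell and Itgb3 rose relative to WT HSPC, so 2 of 8 genes were lower and 1 higher, where 6.04% of all genes were called lower and 6.94% higher. Gp9 had no peak in either DM library (limma adjusted p = 0.0128). Vwf fell by 0.77 ± 0.18 on the log2 scale (limma adjusted p = 0.0314), and Itgb3 rose by 1.65 ± 0.37 (limma adjusted p = 0.0297). Gp5 was at 0 kb in DM HSPC without passing the test (limma adjusted p = 0.171), and Gp1ba differed by -0.44 ± 0.15 and Itga2b by -0.49 ± 0.24. All 3 calls were lost without either WT HSPC library, and without either neutrophil library Gp9 alone was called. Without DM replicate 1 the Itgb3 call, and without DM replicate 2 the Vwf call, was lost. Without either Flt3-ITD library 5 genes were called, with Itga2b and Gp5 added. With no filter on covered genes, or with lists thinned at random to equal length, none was called.

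Beside these values, 8 erythroid marker genes together had 30.2 and 20.2 kb of H3K27ac in Npm1c HSPC, 7.92 and 12.5 kb in Flt3-ITD HSPC and 3.83 and 2.39 kb in DM HSPC, against 17.5 and 17.1 kb in WT HSPC. Alas2 and Car1 had none in DM HSPC. Erythroid and megakaryocytic cells share progenitors, and the part of such a shift in the platelet gene values was not tested. The 8 endothelial markers summed to 3.57 and 1.57 kb in DM HSPC, against 1.26 and 1.89 kb in WT HSPC, and Tie1, Tek, Sele and Emcn had none in either group. Of the 4 that could be tested for H3K27ac, Kdr was called higher in DM than in WT HSPC (limma), where 6.94% of all genes were called higher. The lists of DM replicates 1 and 2 covered 20.3 and 13.5 Mb of H3K27ac in all, against 15.2 and 15.3 Mb in WT HSPC.

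H3K4me3 peaks were missing from some starts in DM HSPC. Within 1 kb of the start, both WT HSPC libraries had an H3K4me3 peak at 8 of the 9 genes, the exception being Gp5, whose single peak lay further inside. In DM HSPC 3 of these 8, Gp6, Vwf and Selp, had none in either library. Of the 11075 genes with a start peak in both WT HSPC libraries, 2.0% lost it in this way. The shares of all genes that lost start peaks cover only genes with a RefSeq promoter. Itgb3 and Vwf are not among them and were counted here from the low end of the span. At Vwf the start had 0 bp in DM HSPC, against 802 and 928 bp in WT HSPC, and over the whole window H3K4me3 covered 3 kb in both DM libraries, against 6 kb in both WT HSPC libraries. Vwf also lost the H3K4me3 peak that lay with the H3K27ac region at 11.54 to 13.36 kb. Gp6, without H3K27ac anywhere, had 0 kb of H3K4me3 in DM HSPC and 2 kb in both WT HSPC libraries. Selp rested on a peak at the edge, 99 and 506 bp in WT HSPC, and left the list when the start window was narrowed to 500 bp, a setting chosen after the data were seen. Gp1bb also had its peak only at the edge, with 211 and 221 bp in WT HSPC and 52 and 95 bp in DM HSPC. Within 500 bp of its start no library had an H3K4me3 peak. Gp9 kept a start peak in 1 of 2 DM libraries. Npm1c and Flt3-ITD HSPC lost no H3K4me3 start peak in both libraries at any of the 9 genes, where 0.442% and 0.37% of all genes did. Set against Npm1c HSPC, DM HSPC lost the same 3 of 8 (1.48% of all genes), and against Flt3-ITD HSPC Vwf and Selp of 7 (2.14% of all genes). H3K27ac start peaks were present in both WT HSPC libraries at Itga2b and Gp9, and both were missing from DM HSPC, where 2.13% of all genes lost one.

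**Figure D3:**
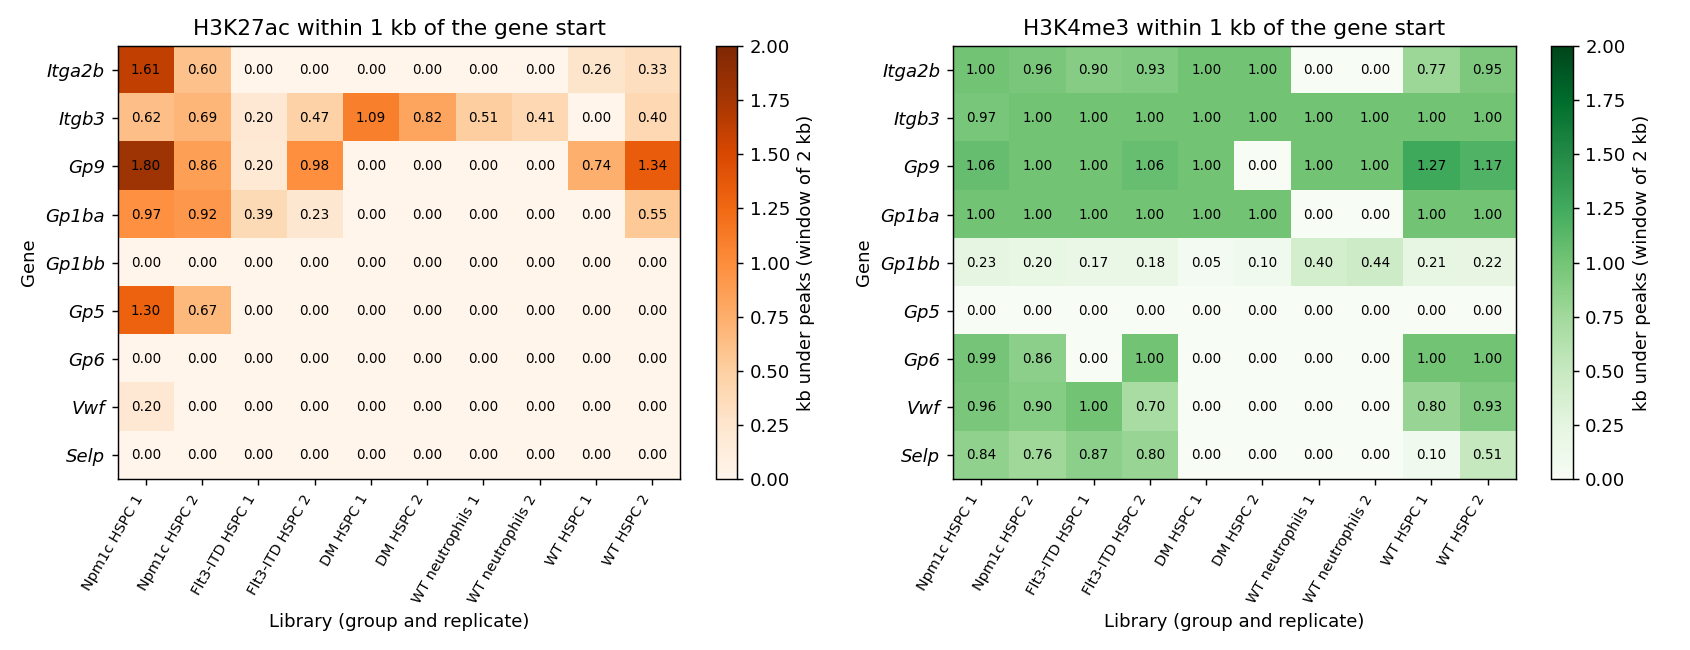
Length under H3K27ac (left) and H3K4me3 (right) peaks within 1 kb on each side of the start of each gene, in kb, with libraries in columns by group; each number is 1 library. H3K4me3 is at 0 in both DM libraries for Gp6, Vwf and Selp, besides Gp5, and in both neutrophil libraries for Itga2b and Gp1ba also; H3K27ac at Gp5 appears in Npm1c HSPC only.

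Over whole windows, the limma test called 1 of 9 genes for H3K4me3 in DM against WT HSPC, Gp1ba, lower, where 3.7% of all genes were called lower and 4.47% higher. Gp1ba had 2 kb in both DM libraries, against 3 kb in both WT HSPC libraries, with no spread within either group, so that its p rests on a variance of nearly 0; with the spread held to at least 1 peak, a setting chosen after the data were seen, its limma adjusted p was 0.806, and Vwf was called in its place (limma adjusted p = 0.0312, against 0.0556 without that floor). With each library centred on its own median Gp1ba was not called either (limma adjusted p = 0.816), and Gp6 and Gp9 were called lower instead.

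For H3K4me1, 1 of 9 genes was higher and 3 lower in DM than in WT HSPC, where 1.91% of all genes were called higher and 16.2% lower. Itga2b had 5 kb in both DM libraries, against 10.3 and 9.14 kb in WT HSPC, a fall of 0.89 ± 0.16 on the log2 scale (limma adjusted p = 0.0152). Regions at 4.22 to 7.75 kb inside Itga2b and at 5.05 to 6.13 kb and 8.09 to 10.92 kb before its start were called in all 6 Npm1c, Flt3-ITD and WT HSPC libraries and in no DM or neutrophil library; both upstream places lie in Gpatch8. Gp9 had 2.40 and 1.70 kb in DM, against 4.14 and 4.42 kb in WT HSPC (log2 difference -0.92 ± 0.21, limma adjusted p = 0.0327), and Gp1ba had 5 kb in both, against 9 kb in both (log2 difference -0.79 ± 0.11, limma adjusted p = 0.00672). Gp6 went the other way, with 2 kb in both DM libraries, against 0 kb in both WT HSPC libraries (limma adjusted p = 0.0286). Its DM peaks lay 3.14 to 4.18 kb inside the gene and 40.22 to 41.54 kb downstream of the start, past its end, and both places were also called in Flt3-ITD replicate 2. All genes fell by a median of 0.21 on this scale; with centring, Gp6 and Itga2b stayed called and the all-gene split was 1028 higher and 1441 lower, against 332 and 2819. Leaving out any 1 DM or WT HSPC library left Gp1ba alone called, Gp9 was also lost without any 1 Npm1c or Flt3-ITD library, and Gp6 without either neutrophil library.

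**Figure D4:**
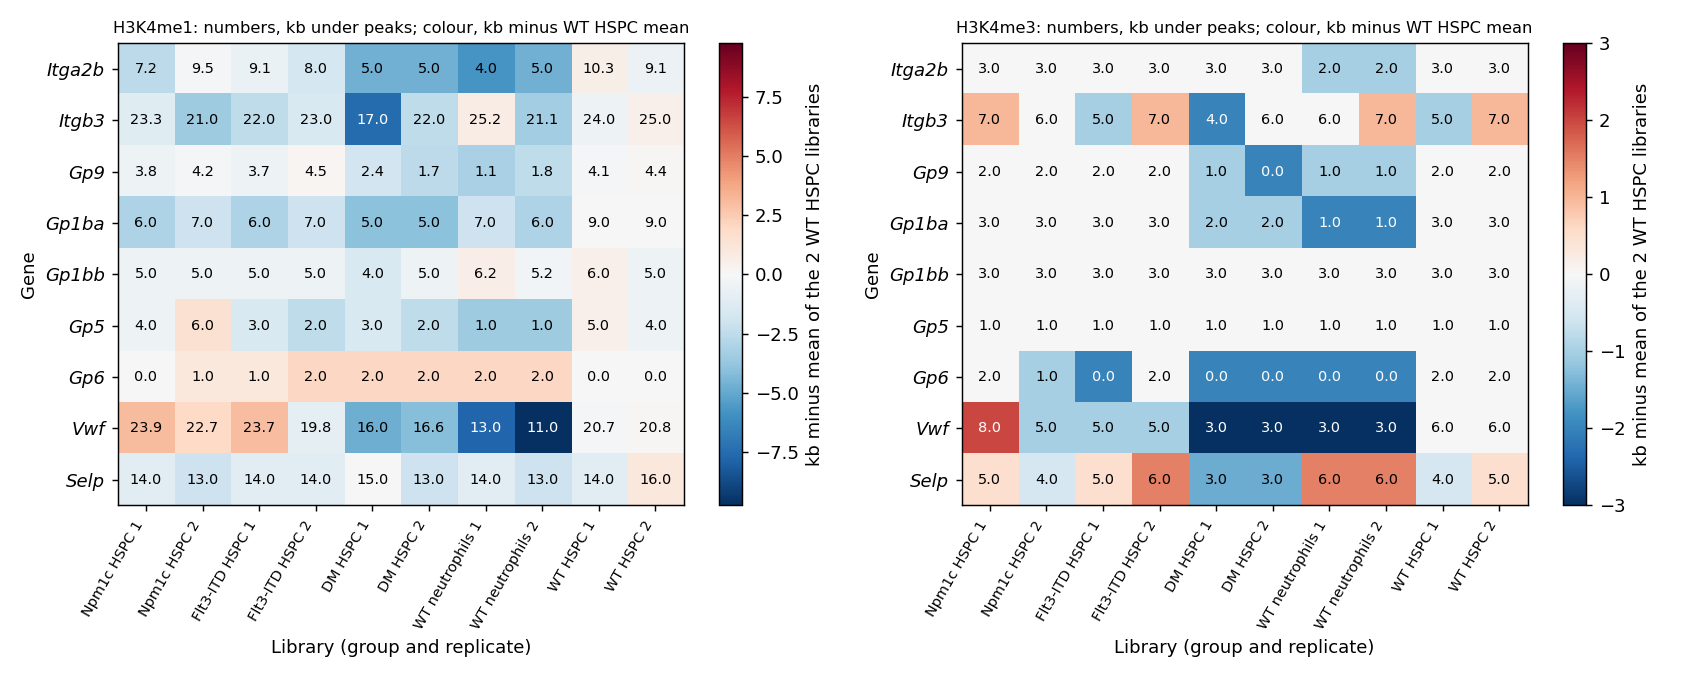
Length in kb under H3K4me1 (left) and H3K4me3 (right) peaks in each gene's window, with 1 column for each library; the printed number is the kb, and the colour is that number minus the mean of the 2 WT HSPC libraries. For H3K4me1, Itga2b, Gp9 and Vwf are blue, below WT HSPC, in all DM and neutrophil columns, and Gp1ba in every column but those of WT HSPC. Vwf holds 3.0 kb of H3K4me3 in all 4 of those libraries.

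Set against Npm1c HSPC, DM HSPC show what was different once the Flt3-ITD mutation was present too. H3K27ac fell at 5 of 8 genes, Itga2b, Gp9, Gp1ba, Gp5 and Vwf, and rose at none, where 30.9% of all genes were called lower and 3.01% higher. Itga2b fell by 1.69 ± 0.24 (limma adjusted p = 0.00289), Gp1ba by 1.04 ± 0.15 (limma adjusted p = 0.00309) and Vwf by 1.03 ± 0.18 (limma adjusted p = 0.0057) on the log2 scale. Part of the fall in the Gp1ba window lay over Slc25a11 and Rnf167, with 767 and 779 bp in DM, against 1741 and 1233 bp in Npm1c HSPC. Gp9 and Gp5 were at 0 kb in both DM libraries (limma adjusted p = 0.00546 and 0.0059). The same 5 were called with each library centred, when the all-gene split was 1664 higher and 1964 lower, against 411 and 4212, and 5 were called whichever library was left out. Of the 5 genes with an H3K27ac start peak in both Npm1c libraries, 4 (Itga2b, Gp9, Gp1ba and Gp5) had none in either DM library, where 3.73% of 8261 genes did the same; Itgb3 kept its peak. For H3K4me1 Vwf (-0.50 ± 0.11, limma adjusted p = 0.0304) and Itga2b (-0.67 ± 0.16, limma adjusted p = 0.0414) fell, 2 of 9 genes, where 12.1% of genes were lower and 3.1% higher; without either DM library, either WT HSPC library or Npm1c replicate 2 neither was called, Vwf was also lost without Npm1c replicate 1, and Itga2b without any 1 Flt3-ITD or neutrophil library. For H3K4me3 Vwf had 3 kb in both DM libraries, against 8 and 5 kb in Npm1c HSPC, a fall of 0.97 ± 0.19 (limma adjusted p = 0.042) that was not called without any 1 DM, Flt3-ITD, WT HSPC or neutrophil library. Gp1ba was the other of 2 H3K4me3 calls among 9 genes, where 4.34% of genes were lower and 3.8% higher, and its limma adjusted p with the spread floor was 0.818. With centring neither was called for H3K4me3 (limma adjusted p = 0.368 for Vwf and 0.682 for Gp1ba), and Gp6 and Gp9 were called lower instead.

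Against Flt3-ITD HSPC, DM HSPC gave no H3K27ac call among the 8 genes (limma), where 2.49% of genes were called, with Gp9 and Gp1ba at an unadjusted p below 0.05. Both had start peaks in the 2 Flt3-ITD libraries and none in the DM libraries, a loss seen at 1.61% of 8080 genes. Without Flt3-ITD replicate 1, which had the lower value of the pair at both genes, Gp9 and Gp5 were called lower. For H3K4me1 Itga2b fell (-0.71 ± 0.16, limma adjusted p = 0.0477), 1 of 9, where 8.37% of genes were called lower and 0.961% higher; the call was lost without any 1 DM, Flt3-ITD, WT HSPC or neutrophil library. For H3K4me3 Selp had 3 kb in both DM libraries, against 5 and 6 kb in Flt3-ITD HSPC (log2 difference -0.77 ± 0.15, limma adjusted p = 0.0455); with Gp1ba it made 2 of 9, where 3.62% of genes were lower and 2.03% higher, and neither was called with the spread floor or with centring. Selp was also lost without any 1 DM, Flt3-ITD or neutrophil library.

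The interaction asks whether the Npm1c difference depended on Flt3-ITD, as DM minus Flt3-ITD less Npm1c minus WT. For H3K27ac it was negative at 3 of 8 genes, where 17.5% of all genes were called lower and 0.462% higher: Itga2b (-1.51 ± 0.33, limma adjusted p = 0.0284), Gp1ba (-1.10 ± 0.21, limma adjusted p = 0.0201) and Gp5 (-2.20 ± 0.60, limma adjusted p = 0.0456), the last with both DM libraries at 0 kb. The Gp1ba value includes peaks over neighbouring genes. Without Flt3-ITD, Npm1c HSPC had 2.05 ± 0.19 kb at Itga2b and WT HSPC 0.608 ± 0.093 kb; with it, DM HSPC had 0.291 ± 0.038 kb and Flt3-ITD HSPC 0.510 ± 0.373 kb (SD, n = 2 each). No call remained after centring, when the 3 values were -1.01, -0.60 and -1.70 and the all-gene split was 197 higher and 370 lower, against 63 and 2390. Nor did one remain without Npm1c replicate 1 or either WT HSPC library. Itga2b was further lost without DM replicate 2 or either neutrophil library, Gp1ba without Flt3-ITD replicate 2, and Gp5 without any 1 library other than those of Flt3-ITD HSPC. H3K4me1 gave none of 9 (limma), with Gp9 and Vwf at an unadjusted p below 0.05, where 3.35% of genes were called. H3K4me3 gave Gp1ba alone, where 3.78% of genes were lower and 1.96% higher, and its limma adjusted p was 1.0 with the spread floor; with centring it was not called.

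WT neutrophils served as a mature myeloid comparison for WT HSPC, and they split the set. For H3K27ac 3 of 8 genes were higher, Selp (1.76 ± 0.38, limma adjusted p = 0.00961), Itgb3 (1.96 ± 0.37, limma adjusted p = 0.00635) and Gp1bb (limma adjusted p = 0.0118, with WT HSPC at 0 kb), and 3 were lower, Vwf (-1.49 ± 0.18, limma adjusted p = 0.00104), Gp9 (-1.82 ± 0.46, limma adjusted p = 0.0185) and Itga2b (limma adjusted p = 0.00832, with neutrophils at 0 kb). All genes were called higher at 13.2% and lower at 23.2%. The Gp1bb call came from peaks inside Septin5 and the Gp9 remnant from Rab43. Part of the rise in the Selp window lay in F5. The widest region there had 689 and 690 bp in neutrophils, against 214 and 0 bp in WT HSPC. Gp9 and Gp1bb were lost without any 1 WT HSPC or neutrophil library, Selp without WT HSPC replicate 2 or neutrophil replicate 2, and Itga2b without WT HSPC replicate 2. At the starts, H3K4me3 was missing from both neutrophil libraries at 5 of the 8 genes that had it in WT HSPC (Itga2b, Gp1ba, Gp6, Vwf and Selp), where 6.47% of 11075 genes lost it. Itgb3, Gp9 and Gp1bb kept theirs, though at Gp1bb only at the edge of the start window (211 and 221 bp in WT HSPC, 396 and 439 bp in neutrophils). The H3K27ac start peaks of Itga2b and Gp9 were also missing from both neutrophil libraries, as at 8.3% of genes with one. Npm1c HSPC lost neither, where 0.038% of genes lost one.

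For H3K4me1 in neutrophils, Gp6 was higher and Gp9, Vwf, Gp1ba, Itga2b and Gp5 lower, 1 and 5 of 9, where 4.67% and 18.6% of all genes were called. Vwf had 13 and 11 kb in neutrophils, against 20.7 and 20.8 kb in WT HSPC (-0.77 ± 0.11, limma adjusted p = 0.00473). Gp5 had 1 kb in both neutrophil libraries, against 5 and 4 kb in WT HSPC (-1.73 ± 0.27, limma adjusted p = 0.00717). Gp6 was lost without any 1 WT HSPC or neutrophil library, Gp1ba also without either DM library, and Gp9 without WT HSPC replicate 2. The Gp6 peaks of neutrophils lay 30.03 to 31.08 kb and 32.26 to 33.37 kb inside the gene, and neither place was called in any HSPC library. H3K4me3 over the window was lower at Vwf, Gp1ba and Itga2b, 3 of 9, where 9.88% of all genes were lower and 6.72% higher. Vwf had 3 kb in both neutrophil libraries, against 6 kb in both WT HSPC libraries (limma adjusted p = 0.0311), a call lost without any 1 DM, Flt3-ITD, WT HSPC or neutrophil library. Gp1ba had 1 kb in both, against 3 kb in both (limma adjusted p = 0.0147 with the spread floor). Itga2b had 2 kb in both, against 3 kb in both, with an adjusted p of 0.516 under that limma floor. With centring none of the 3 was called (limma adjusted p = 0.443 for Vwf, 0.125 for Gp1ba and 0.816 for Itga2b), and Gp6 was called lower instead. Selp reached 6 kb in both neutrophil libraries, against 4 and 5 kb in WT HSPC, and had peaks at 18.48 to 19.54 kb and 30.14 to 31.28 kb that no HSPC library had, but did not pass the test (limma adjusted p = 0.161).

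**Figure D5:**
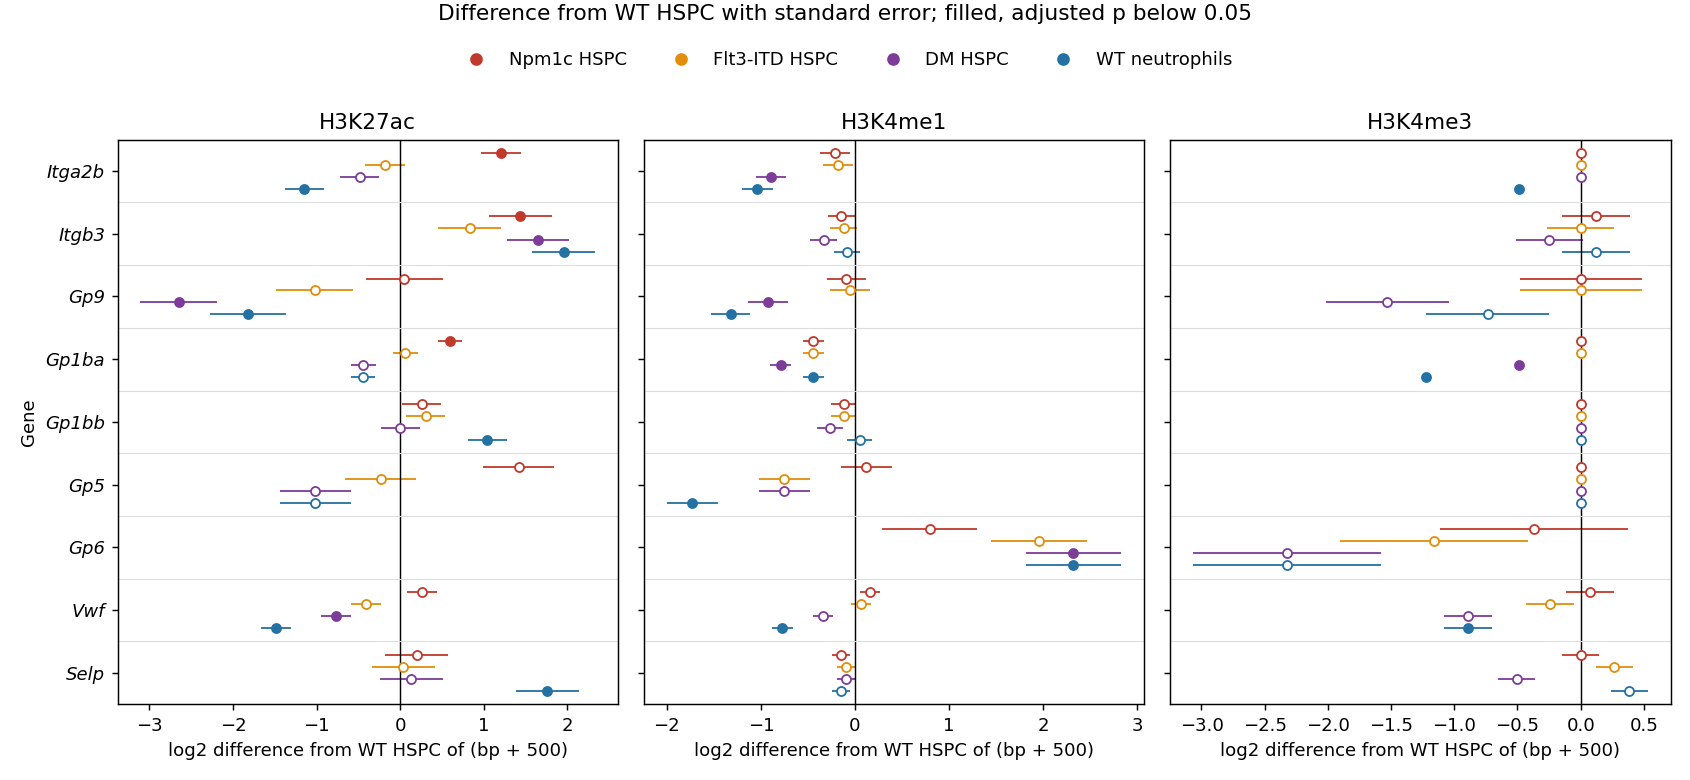
Difference from WT HSPC of each gene in Npm1c, Flt3-ITD and DM HSPC and in neutrophils, as log2 of covered bp plus 500 bp, with its standard error; filled points have a limma adjusted p below 0.05, and Gp6 has no H3K27ac point. Points for which a group is at 0 kb (in Itga2b, Gp9, Gp1bb, Gp5 and Gp6) depend on the 500 bp added; H3K4me3 points with no visible error come from groups without spread.

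The other platelet genes were read from 4 lists. Of 11 granule and cytoskeleton genes tested for H3K27ac, 6 rose in Npm1c against WT HSPC (Tubb1, Ppbp, Pf4, Mmrn1, Nbeal2 and Plek) and 6 fell in DM against Npm1c HSPC. Over all genes tested, 17.7% were called higher in Npm1c than in WT HSPC and 30.9% lower in DM than in Npm1c HSPC; with centring 104 genes were called higher in Npm1c than in WT HSPC, against 2410 without it, and the lists were not counted again with centring. Pf4, platelet factor 4, had 0.969 ± 0.054 kb in Npm1c and 0 kb in every other group (SD, n = 2; limma adjusted p = 0.00207 against WT HSPC), and Ppbp, a chemokine gene beside it, 1.09 ± 0.22 kb in Npm1c and 0 kb in every other group. Of 12 megakaryocyte regulator genes, 5 were higher in Npm1c than in WT HSPC, while in DM against WT HSPC 1 was higher (Etv6) and 5 were lower (Gfi1b, Tal1, Gata2, Zfpm1 and Gata1), where 6.94% of all genes were higher and 6.04% lower. Gata1, the erythroid and megakaryocytic transcription factor, had 0 kb in DM HSPC, against 1.502 ± 0.148 kb in WT HSPC (SD, n = 2 each; limma adjusted p = 0.00438). Zfpm1, its cofactor FOG-1, fell to 0.836 ± 0.463 kb in DM HSPC, against 13.04 ± 0.56 kb in WT HSPC (SD, n = 2 each; limma adjusted p = 0.00407). Gfi1b, a transcriptional repressor used in both lineages, had 0 kb, against 7.89 ± 0.43 kb (limma adjusted p = 0.00133).

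Among 15 other platelet receptor genes, 3 were higher in Npm1c than in WT HSPC (Itga6, Itgb1 and Itga2, all integrin subunits), and 1 was lower in DM than in WT HSPC: P2ry1, the ADP receptor, with 0.128 ± 0.180 kb, against 1.31 ± 0.03 kb (SD, n = 2 each; limma adjusted p = 0.00557). Of 12 integrin and platelet signalling genes, 2 were higher in Npm1c than in WT HSPC (Tln1 and Rap1b) and 0 were called in DM against WT HSPC (limma). The counts of both lists in Npm1c and of lower receptor genes in DM lay near the shares of all genes. For H3K27ac 17.7% of all genes were called higher in Npm1c than in WT HSPC. In DM against WT HSPC 6.94% were higher and 6.04% lower. H3K4me3 fell in DM against WT HSPC at genes that included Clec1b and Treml1 among the receptors, Tubb1 and Mmrn1 among the granule and cytoskeleton genes, and Zfpm1 among the regulators, where 3.7% of all genes were lower and 4.47% higher. Fcer1g, of the signalling list, was higher in DM than in WT HSPC for this mark. Treml1, a granule receptor of platelets, had 0 kb in DM HSPC, against 2 kb in both WT HSPC libraries (limma adjusted p = 0.00191). The median H3K27ac differences of the 4 lists from WT HSPC ran from 0.58 to 0.93 in Npm1c and from -0.48 to 0.17 in DM HSPC, beside 0.36 and 0.02 over all genes.

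The genes most like each of these in H3K27ac were taken as the 3 with the highest Pearson r over the 10 libraries among genes tested on other chromosomes, as a description. For Itga2b these included Ufd1 (r = 0.991) and Ccdc71l. They were for Gp5 Rec8 (r = 0.991), Ankrd6 and Nkx1-2, for Vwf Mrpl52 (r = 0.988), Hyal1 and Nmnat3, and for Gp9 Tspan15 (r = 0.973), Ttll12 and Mpst. For Itgb3 they were Uvrag (r = 0.942), Atg101 and Smim41, for Gp1ba Gm46353 (r = 0.987), Mast4 and Ube3b, for Gp1bb Mapk13 (r = 0.992), Nrg4 and Fas, and for Selp Ggt1 (r = 0.975), Crtac1 and Wdfy4. The 10 libraries share 5 groups and peak list lengths that differ, so such values of r come easily over 13637 genes.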

How the data were processed

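ChIP-seq for H3K27ac, H3K4me1 and H3K4me3 was analysed in 30 libraries. The 5 input samples were not analysed here. Per the submitters' processing notes, Bowtie2 2.1.0 and the mm10 build were used, together with Picard, HOMER and MACS2, with versions not given in the sources used here. Deposited files are peak coordinates with no counts or scores, so depth is unknown and no counting interval can be given. Gene spans came from the RefSeq gene table on the same assembly.

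Covered bp per window were computed here (Python 3.11.15) and tested as log2(bp + 500) with limma 3.58.1 in R 4.3.3, with 1 fit per mark over all 5 groups, for genes covered in at least 2 libraries, and with Benjamini-Hochberg adjustment over all genes tested. A call is an adjusted p below 0.05. The fit was also run on simulated, normally distributed values. Each simulated gene had some spread, so fixed-width values without spread were not covered. Errors are SD over 2 libraries or the SE of the fit; p-values measure the spread between these libraries. The start of Itgb3 and Vwf is the low end of the span.

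The members, gene lists and motifs were chosen with earlier results of these data known. All 9 members were named in each mark, with up to 4 called genes of each other list, the 3 most alike genes on other chromosomes and neighbours that share peaks; further called genes were named only to complete a count, after their values were seen. Alternatives were centring, lists of equal length, other pseudocounts, no filter, other windows, a replicate block, a spread floor and each library left out. Some genes that the naming rule selects are not reported here.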

Additional observations from a re-analysis of the deposited data

Results flagged for a closer look

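The H3K27ac interaction of Npm1c and Flt3-ITD passed the test at 3 of 8 genes, where 17.5% of all genes were called lower and 0.462% higher. A call means that DM minus Flt3-ITD HSPC differed from Npm1c minus WT HSPC. The genes were Itga2b (log2 -1.51), Gp1ba (-1.1, from a window that includes peaks over neighbouring genes) and Gp5 (-2.2, a value that depends on the 500 bp added because both DM libraries were at 0 kb). None of the 3 stayed called with centring, without Npm1c replicate 1 or without either WT HSPC library. At Gp1ba the H3K4me3 interaction was -0.49, from groups with no spread within them, and it was not called with the spread floor or with centring. At Vwf, H3K4me1 went opposite ways: both DM libraries were below both Flt3-ITD libraries, with means that differed by -5.479 kb, while both Npm1c libraries were above both WT HSPC libraries, by 2.531 kb. The fitted interaction for Vwf was -0.56 ± 0.15 with a limma adjusted p of 0.146, so the difference did not pass the test. With 2 libraries a group, no library could be tested for standing apart from its group.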

How the results depend on the processing

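Of 42 called member differences, 5 were called under all settings fitted: H3K27ac at Vwf and Itgb3 in neutrophils against WT HSPC, and at Vwf, Itga2b and Gp5 in DM against Npm1c HSPC. The Vwf and Itgb3 differences among these were not fitted in start windows, so that setting could not end their calls. Of the differences fitted in start windows, 20 were no longer called and 8 stayed called. The rest of this paragraph gives counts of called members that moved by over 1.5 times. For H3K27ac, Npm1c against WT HSPC (3) gave 0 with centring, 0 with lists thinned to equal length, 1 with the widest peaks, 0 with no filter and 1 in start windows. DM against WT HSPC (3) gave 0 with thinned lists, 0 with no filter and 0 in start windows; neutrophils against WT HSPC (6) gave 3 with thinned lists and 1 in start windows; DM against Npm1c HSPC (5) gave 3 with thinned lists; DM against Flt3-ITD HSPC (0) gave 1 with a pseudocount of 100 bp. The interaction (3) gave 0 with centring, 0 with thinned lists, and 1 with no filter, with the span alone and in start windows. For H3K4me1, Npm1c and Flt3-ITD against WT HSPC (0 each) gave 1 each without bases of other genes. DM against WT HSPC (4) gave 2 with centring, 1 with thinned lists, 1 with the span alone and 0 in start windows; neutrophils (6) gave 3 with the span alone and 0 in start windows. DM against Npm1c HSPC (2) gave 0 with thinned lists, 1 with no filter, 0 with the span alone and 0 in start windows; DM against Flt3-ITD HSPC (1) gave 0 with centring, thinned lists, no filter or start windows and 2 with a pseudocount of 2000 bp. For H3K4me3, DM against WT HSPC (1) gave 2 with centring, a pseudocount of 100 bp, the span alone or without bases of other genes, and 0 with thinned lists; neutrophils (3) gave 1 with centring and 1 with thinned lists. With centring the H3K4me3 calls were other genes, Gp6 and Gp9 for DM against WT or Npm1c HSPC and Gp6 for neutrophils. DM against Npm1c HSPC (2) gave 1 with thinned lists, a pseudocount of 2000 bp, no filter, the spread floor or start windows; DM against Flt3-ITD HSPC (2) gave 0 with centring, thinned lists, the spread floor or start windows and 1 with a pseudocount of 2000 bp or no filter; the interaction (1) gave 0 with centring, thinned lists or the spread floor. The difference of Gp1ba changed sign to 0.10 for H3K4me1 in neutrophils with thinned lists and to 0.10 for the H3K4me3 interaction with centring. The cause of these moves was not tested. The spread floor and the start windows, which leave out Itgb3 and Vwf, were chosen after seeing the data, as was a start peak within 500 bp, under which Selp left the H3K4me3 losses of DM and neutrophils against WT HSPC. Asking for at least 500 bp of coverage in the window changed the number of libraries with a peak at 5 of 27 gene and mark pairs.

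With each library left out in turn, called members ranged as follows. For H3K27ac they were 0 to 4 for Npm1c, 0 to 0 for Flt3-ITD, 0 to 5 for DM and 2 to 7 for neutrophils, each against WT HSPC, 5 to 5 for DM against Npm1c, 0 to 2 for DM against Flt3-ITD and 0 to 4 for the interaction. For H3K4me1 they were 0 to 0, 0 to 1, 1 to 3, 3 to 6, 0 to 2, 0 to 1 and 0 to 0 in the same order, and for H3K4me3 0 to 1, 0 to 1, 1 to 2, 2 to 3, 1 to 2, 1 to 3 and 1 to 2. A group left with 1 library was assumed to vary like the others.

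Deviations of same-numbered libraries of different groups correlated at -0.231 (Npm1c with Flt3-ITD HSPC, H3K4me3) to 0.278 (Flt3-ITD with DM HSPC, H3K27ac). The series design names no block, and the numbers were not taken as pairs in the main fit. With the replicate block, 1 member was called for H3K27ac in Npm1c against WT HSPC, 1 for H3K4me1 in DM against Npm1c HSPC and 0 in DM against Flt3-ITD HSPC, and 1 each for H3K4me3 in DM against Npm1c and Flt3-ITD HSPC.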
